A study of Homo sapiens with 2 samples.

Results

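Kinesins are motor proteins that use ATP to move along, or to take apart, microtubules. They were taken here as the protein-coding rows of the deposited gene table whose symbols are KIF with a number and an optional letter A, B or C, or KIFC with a number, which gave 42 genes of 44591 in the table. Of these, 12 form the mitotic group, 15 are motors of cargo transport, and the other 15 have further or less settled roles. The study sequenced poly(A)-selected RNA of MHCC97H, a human hepatocellular carcinoma cell line labelled as spontaneously metastatic to a high degree, and of MHCC97L, labelled as metastatic to a low degree. Both lines are described as wild type and were grown in DMEM with 10% fetal bovine serum. Each line has 1 library, so no difference below has a replicate check, no p-value is given, and what is compared are these libraries.

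Mitotic kinesins are made mainly in cells that are dividing. They push spindle poles apart, align and shorten the fibres that hold chromosomes, and bundle the midzone where the cell is cut during cytokinesis. Transport kinesins carry vesicles, mitochondria and other cargo toward the cell edge in cells at any stage. Many mitotic genes are switched on late in the cell cycle through a short promoter element, the cell-cycle genes homology region, often with nearby CCAAT boxes that bind the factor NF-Y.

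The libraries held 28967153 counted reads for MHCC97H and 24964246 for MHCC97L. Levels are given as CPM, counts scaled to a common total of mapped reads, on effective library sizes, and ratios as MHCC97H over MHCC97L with a 95% interval from the exact binomial split of the reads, which covers counting error only. Reads were counted without molecular identifiers, so they are not independent molecules and the intervals may be too narrow. A gene was kept with at least 1 CPM in 1 library, and 14578 genes were. A gene is called 2-fold higher or lower where its ratio reaches 2-fold and its interval excludes equality. Of 12 hepatocyte markers 9 were kept, with summed levels of 19282 CPM in MHCC97H and 22530 CPM in MHCC97L. Most of these sums came from the keratins KRT8 and KRT18. They stood at 8075 and 5275 CPM in MHCC97H, against 9060 and 4870 CPM in MHCC97L. AFP and TF were not kept, with 12 and 10 reads in MHCC97H against 23 and 24 in MHCC97L. The liver lineage genes SERPINA1 and HNF4A were at 5800 and 80.8 CPM in MHCC97H, against 8422 and 96.6 CPM in MHCC97L, and albumin (ALB) was at 1.85 CPM in MHCC97H against 5.57 CPM in MHCC97L. APOA1, which hepatocytes make in quantity, had 4 reads in each library. None of 4 endothelial markers was kept, and of 4 leukocyte markers CD68 alone was. Of 5 fibroblast markers, COL1A1, COL1A2 and COL3A1 were kept, with summed levels of 17.0 CPM in MHCC97H and 20.2 CPM in MHCC97L. COL1A2 was lower in MHCC97H (0.419-fold, 0.316 to 0.549), and the intervals of COL1A1 and COL3A1 included equality.

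The promoters of the members were compared first. Symbols chose the members, but the mitotic and transport groups were set by function. Many mitotic genes are known to carry the homology region, so the comparison is a description only. The stretches below are RefSeq sequence of build GRCh38.p14, each the 100 bases before the gene's start, except for KIF5B, where bases 150 to 51 before the start are given. They are read 5′ to 3′ on the gene's strand. Capitals mark the homology region motif, spelled TTTGAA. A copy on the opposite strand appears as TTCAAA. They also mark the CCAAT box, and a box on the opposite strand appears as ATTGG. The motifs do not overlap each other in these stretches. The first 5 are mitotic genes that hold TTTGAA before the start, KIF20A and KIF2C are mitotic genes without it, and KIF5B and KIF3C are transport genes with and without it.
KIF23, chr15:69414249-69414348, + strand: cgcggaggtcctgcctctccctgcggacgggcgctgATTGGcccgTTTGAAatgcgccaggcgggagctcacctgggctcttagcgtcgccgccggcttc
KIF4A, chrX:70290004-70290103, + strand: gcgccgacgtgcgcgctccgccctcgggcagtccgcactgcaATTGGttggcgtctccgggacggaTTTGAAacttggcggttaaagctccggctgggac
KIF11, chr10:92593030-92593129, + strand: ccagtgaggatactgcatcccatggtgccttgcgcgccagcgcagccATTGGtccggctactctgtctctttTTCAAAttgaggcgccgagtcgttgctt
KIF18A, chr11:28108157-28108256, - strand: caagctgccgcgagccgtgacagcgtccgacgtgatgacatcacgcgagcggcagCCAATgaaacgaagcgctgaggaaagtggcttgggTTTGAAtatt
KIF15, chr3:44761694-44761793, + strand: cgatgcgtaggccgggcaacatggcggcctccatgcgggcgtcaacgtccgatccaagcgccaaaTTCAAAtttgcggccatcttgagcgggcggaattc
KIF20A, chr5:138179012-138179111, + strand: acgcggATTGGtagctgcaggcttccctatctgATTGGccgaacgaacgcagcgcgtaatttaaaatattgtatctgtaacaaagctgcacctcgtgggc
KIF2C, chr1:44739737-44739836, + strand: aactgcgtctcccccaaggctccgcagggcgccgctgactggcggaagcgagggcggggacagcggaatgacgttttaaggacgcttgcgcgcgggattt
KIF5B, chr10:32056476-32056575, - strand: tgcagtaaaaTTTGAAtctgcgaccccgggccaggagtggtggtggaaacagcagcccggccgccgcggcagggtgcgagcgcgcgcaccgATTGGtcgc
KIF3C, chr2:25982498-25982597, - strand: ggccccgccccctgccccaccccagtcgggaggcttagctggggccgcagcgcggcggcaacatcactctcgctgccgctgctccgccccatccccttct

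Promoter windows run from 250 bases before the start through the first 50 bases of the gene, some genes have more than 1, and 34 of the 42 kinesins have at least 1. On either strand, TTTGAA was present for 9 of the 12 mitotic kinesins (75%), 1 of 12 transport kinesins with a window (8.33%) and 1 of 10 other kinesins (10%), which was KIF4B. Over all 27305 genes with a window the share was 18.2%, and over the 9674 kept protein-coding genes among them 13.4%. CCAAT was present for 10 of the 12 mitotic kinesins (83.3%), 4 of the 12 transport kinesins (33.3%) and 4 of the 10 other kinesins (40%). It was present for 39.7% of all genes and 43.1% of kept protein-coding genes. Both motifs occurred together for 8 mitotic kinesins (66.7%), 1 transport kinesin (8.33%) and 1 other kinesin (10%). They did so for 7.26% of all genes and 5.68% of kept protein-coding genes. Over all 35116 windows taken singly the shares were 15.2% for TTTGAA and 34.6% for CCAAT.

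**Figure D1:**
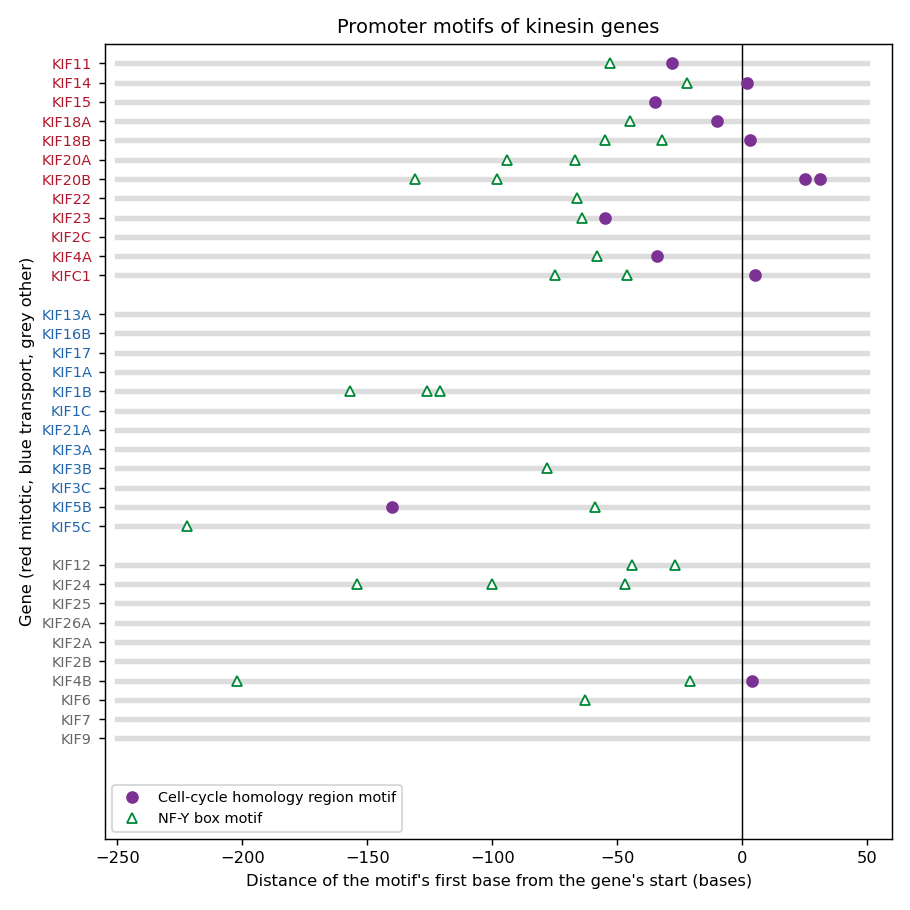
Distance in bases of each motif's first base from the gene's start for the 34 kinesins with a promoter window (grey bars, 250 bases before to 50 from the start). Filled circles mark the cell-cycle homology region motif and open triangles the NF-Y box. The mitotic genes at the top carry circles between 55 bases before and 31 bases after the start, and among transport genes KIF5B alone has a circle, at 140 bases before it.

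Most mitotic matches lay close to the start. In the mitotic genes every TTTGAA match began between base -55 (KIF23) and base 31 (KIF20B), counting the start as base 1. The match of KIF5B, the transport gene that has one, began at base -140. In KIF14, KIF18B, KIFC1 and KIF20B the match lay just after the start, at bases 2, 3, 5 and 25, with a further match at base 31 in KIF20B. The mitotic genes without TTTGAA in the window were KIF2C, KIF20A and KIF22. A match is a string of letters, not a measured binding site, and nothing follows from its lack in this window.

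All 12 mitotic kinesins were kept, and all 12 had a higher CPM in MHCC97H, each with an interval above equality. Their log2 ratios ran from 0.25 to 1.64 with a median of 1.07, against a median of 0.03 over all kept genes and 0.06 over kept protein-coding genes. At least 2-fold higher in MHCC97H were 6 of 12, and over all kept genes 7.06% were. At a threshold of 1.5-fold, 15 of the 32 kept kinesins were higher and 2 lower (KIF12 and KIF3C), where 19.3% and 13.8% of all kept genes were. Summed over the group, the level was 464.8 CPM in MHCC97H and 291.9 CPM in MHCC97L, a 1.59-fold difference (1.55 to 1.64). Mitotic genes took 27.3% of all kinesin reads in MHCC97H (95% exact interval 27.0 to 27.7) and 17.6% in MHCC97L (17.2 to 18.0). In bulk RNA, a larger share of dividing cells in MHCC97H and more mitotic RNA per cell there cannot be told apart. With 1 library per line, neither can be told apart from a difference in how the libraries were made.

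**Figure D2:**
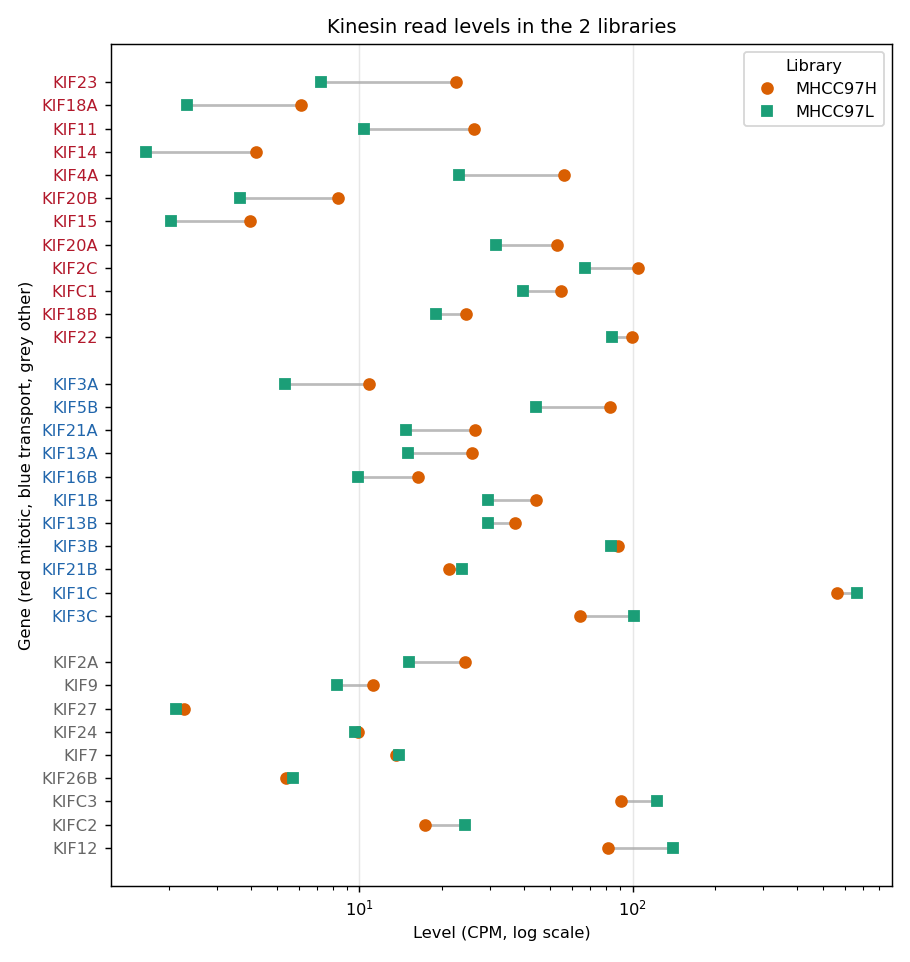
Level in CPM (log scale) of the 32 kept kinesins in the MHCC97H library (circles) and the MHCC97L library (squares), by group and ordered by ratio. In the mitotic group at the top each circle lies right of its square, from 22.5 CPM in MHCC97H against 7.23 CPM in MHCC97L for KIF23 to 99.9 CPM in MHCC97H against 84.1 CPM in MHCC97L for KIF22, while the order is mixed in the groups below.

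The motors of the midzone and cytokinesis had the highest median log2 ratio of the 3 mitotic roles, 1.27 as counted, although KIF18A and KIF11 of the other roles exceeded 4 of these 5 genes. KIF23, a centralspindlin subunit needed to complete cell division, had 692 reads in MHCC97H and 170 in MHCC97L, or 22.5 CPM in MHCC97H against 7.23 CPM in MHCC97L, a 3.11-fold difference (2.63 to 3.70). This was the largest ratio of any kept kinesin. KIF4A, which sets the length of midzone microtubules, stood at 56.2 CPM in MHCC97H against 23.2 CPM in MHCC97L (2.42-fold, 2.20 to 2.67). KIF4B, its near-identical intronless copy, had 0 counted reads in both libraries, and a count of 0 allows up to 0.0976 CPM in MHCC97H and 0.128 CPM in MHCC97L. How reads mapping to several places were treated is not given in the sources used here, so reads shared by the pair may be missing from both, and that limit covers counted reads alone. KIF14, which brings citron kinase to the midbody, was far less abundant, at 4.16 CPM in MHCC97H against 1.66 CPM in MHCC97L (2.49-fold, 1.74 to 3.69). KIF20B, a cytokinesis motor, stood at 8.36 CPM in MHCC97H against 3.66 CPM in MHCC97L (2.28-fold, 1.78 to 2.95). Its relative KIF20A, which brings Aurora B kinase to the midzone, stood at 53.1 CPM in MHCC97H against 31.5 CPM in MHCC97L and stayed below 2-fold (1.68, 1.54 to 1.84). The 5 genes together had 2.14 times the level in MHCC97H (2.02 to 2.27).

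Among the motors that set up the spindle, KIF11, the motor that drives the poles apart and the target of monastrol, was 2.53-fold higher (2.19 to 2.93), at 26.4 CPM in MHCC97H against 10.4 CPM in MHCC97L. KIF15, which can stand in for KIF11 in keeping a bipolar spindle, stood at 3.97 CPM in MHCC97H against 2.04 CPM in MHCC97L (1.94-fold, 1.38 to 2.77). KIFC1, a motor that moves toward microtubule minus ends and clusters extra centrosomes in cancer cells, stood at 54.5 CPM in MHCC97H against 39.7 CPM in MHCC97L (1.37-fold, 1.27 to 1.49). Of these, KIF11 alone passed 2-fold, although the interval of KIF15 reaches past it.

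The motors that act on chromosomes and fibre ends had a standard deviation of 0.51 across their 4 log2 ratios as counted, and of 0.067 once the dependence of all genes on transcript GC content and length was taken out. In the spindle and midzone roles these were 0.44 and 0.32 as counted, and then 0.17 and 0.34. The value of 0.067 rests on 4 genes and is smaller than counting error alone allows for KIF18A, whose log2 interval as counted was 0.95 to 1.85. KIF18A, which damps chromosome movements at metaphase, was 2.60-fold higher (1.93 to 3.60), at 6.11 CPM in MHCC97H against 2.34 CPM in MHCC97L. KIF18B, which shortens astral microtubules, stood at 24.6 CPM in MHCC97H against 19.1 CPM in MHCC97L (1.29-fold, 1.14 to 1.45), and the intervals of these 2 relatives do not meet. KIF2C, the depolymerase known as MCAK, stood at 105.0 CPM in MHCC97H against 66.8 CPM in MHCC97L (1.57-fold, 1.48 to 1.67). KIF22, a chromosome-arm motor, had the smallest mitotic ratio, at 99.9 CPM in MHCC97H against 84.1 CPM in MHCC97L (1.19-fold, 1.12 to 1.26). CENPE, a kinetochore kinesin that the symbol rule leaves out, stood at 2.76 CPM in MHCC97H against 1.45 CPM in MHCC97L (1.90-fold, 1.27 to 2.94).

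Of the 15 transport kinesins 11 were kept, and KIF3A alone was at least 2-fold higher in MHCC97H (7.06% of all kept genes were). None was 2-fold lower, as 4.65% of all kept genes were. The median log2 ratio was 0.58, within a range of -0.65 to 1.01, and 3 of the 11 were below 0. The median of the mitotic group exceeded this by 0.49 on the log2 scale, with overlapping ranges. The summed transport level was 977.1 CPM in MHCC97H against 1020 CPM in MHCC97L (0.958-fold, 0.942 to 0.974), so the sum and the median lay on opposite sides of equality. The sum was mostly KIF1C.

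KIF1C, a kinesin-3 motor of integrin-bearing vesicles, was the most abundant kinesin in both libraries. It stood at 559.0 CPM in MHCC97H and 663.6 CPM in MHCC97L (0.842-fold, 0.824 to 0.861), and took 32.9% of all kinesin reads in MHCC97H and 40.1% in MHCC97L. Per kilobase of its longest transcript it remained first, at 70.6 CPM per kb in MHCC97H and 83.8 in MHCC97L. On that scale the next in MHCC97H were KIF22 (39.9), KIF12 (37.1) and KIF2C (35.5), and in MHCC97L KIF12 (64.1), KIFC3 (35.8) and KIF22 (33.6). KIF1B, a motor of mitochondria and synaptic vesicle precursors, was at 44.3 CPM in MHCC97H against 29.5 CPM in MHCC97L, a log2 ratio of 0.58. KIF13A, KIF13B and KIF16B, kinesin-3 motors of endosomes and related vesicles, had log2 ratios of 0.77, 0.32 and 0.73, with intervals above equality. KIF1A, the neuronal member, had 0 reads in MHCC97H and 2 in MHCC97L.

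KIF5B supplied nearly all reads of the heavy chain genes of conventional kinesin. This heavy chain, found in all tissues, stood at 83.0 CPM in MHCC97H and 44.2 CPM in MHCC97L (1.88-fold, 1.75 to 2.02) and supplied 99.1% of KIF5 reads in MHCC97H and 99.5% in MHCC97L. The neuronal heavy chains KIF5A and KIF5C had 17 and 7 reads in MHCC97H, against 5 and 0 in MHCC97L.

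The kinesin-2 genes went separate ways. KIF3A and KIF3B form a heterodimer that builds cilia, and KIF3C can pair with KIF3A. KIF3A was at 10.8 CPM in MHCC97H against 5.36 CPM in MHCC97L (2.02-fold, 1.64 to 2.50), KIF3B at 88.8 CPM in MHCC97H against 83.5 CPM in MHCC97L (1.06-fold, 1.00 to 1.13) and KIF3C at 64.3 CPM in MHCC97H against 100.9 CPM in MHCC97L (0.638-fold, 0.600 to 0.677). KIF3A thus made up 6.60% of KIF3 reads in MHCC97H (exact interval 5.93 to 7.33) and 2.82% in MHCC97L (2.36 to 3.35), while KIF3C made up 39.2% in MHCC97H (37.9 to 40.6) and 53.2% in MHCC97L (51.7 to 54.7). The 2-fold call of KIF3A was marginal, and its log2 ratio of 1.01 became 0.99 with DESeq2 size factors. KIF21A and KIF21B, which move on and regulate microtubule tips, also parted. KIF21A was 1.79-fold higher (1.58 to 2.04), at 26.5 CPM in MHCC97H against 14.8 CPM in MHCC97L, and KIF21B stood at 21.2 CPM in MHCC97H against 23.7 CPM in MHCC97L (0.897-fold, 0.800 to 1.01), so KIF21A held 55.5% of their reads in MHCC97H and 38.5% in MHCC97L. KIF1B likewise held 7.34% of KIF1 reads in MHCC97H (6.97 to 7.72) and 4.26% in MHCC97L (3.95 to 4.58), and KIFC1 held 33.4% of KIFC reads in MHCC97H (32.1 to 34.8) and 21.3% in MHCC97L (20.1 to 22.5).

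**Figure D3:**
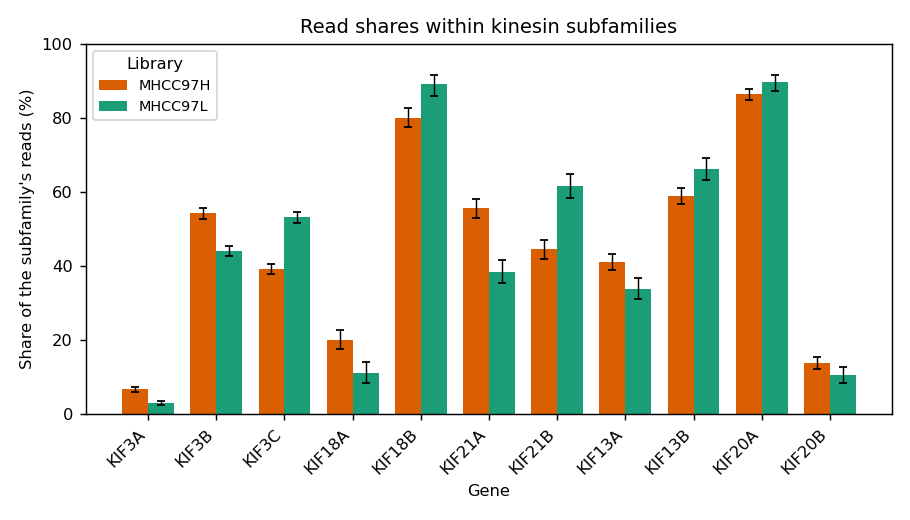
Share of the subfamily's reads (%) taken by members of the KIF3, KIF18, KIF21, KIF13 and KIF20 subfamilies in MHCC97H (left bars) and MHCC97L (right bars), with 95% exact binomial intervals. Of the genes plotted, KIF3A, KIF3B, KIF18A, KIF21A and KIF13A held larger shares in MHCC97H with intervals apart, from 6.60% in MHCC97H against 2.82% in MHCC97L for KIF3A to 55.5% in MHCC97H against 38.5% in MHCC97L for KIF21A, while the intervals of KIF20B overlap.

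Outside both groups, 9 of 15 kinesins were kept and none reached 2-fold in either direction, with a median log2 ratio of -0.03. Over all kept genes 7.06% were 2-fold higher and 4.65% lower, so so few genes could show none. KIF12, whose loss causes cholestatic liver disease in children, had the lowest ratio of all kept kinesins, at 81.3 CPM in MHCC97H against 140.7 CPM in MHCC97L (0.578-fold, 0.548 to 0.609). The minus-end motors KIFC2 and KIFC3 were also lower, at 17.4 CPM in MHCC97H against 24.3 CPM in MHCC97L (0.716-fold, 0.635 to 0.806) and 91.1 CPM in MHCC97H against 122.7 CPM in MHCC97L (0.742-fold, 0.705 to 0.782). KIF2A, a depolymerase close to KIF2C, was 1.60-fold higher (1.41 to 1.82), and its share of KIF2 reads was 18.8% in MHCC97H and 18.6% in MHCC97L. KIF9, a motor of cilia and flagella, was 1.35-fold higher (1.13 to 1.62), but 17.9% of its exonic bases overlap KIF9-AS1 or KLHL18, the largest such share of any kept kinesin. The same limit holds for KIFC2, where 17.8% of exonic bases overlap FOXH1. In KIF2A 9.0% overlap IPO11 on the same strand. For KIF7, a regulator of Hedgehog signalling, KIF24, which acts at centrioles, KIF26B and KIF27, the intervals included equality.

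The 10 kinesins that were not kept had at most 17 reads in a library. KIF2B, KIF4B and KIF6 had none. KIF17 had 9 reads in MHCC97H and 0 in MHCC97L. KIF19, KIF25 and KIF26A had 9, 6 and 9 reads in MHCC97H, against 13, 7 and 7 in MHCC97L. All 32 kept kinesins passed the minimum in both libraries. The exons of 18 of them overlap another annotated gene, by up to 13.01% of exonic bases in the mitotic group (KIF22), and no strand setting is given, so a part of those reads is not certain.

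The size of a kinesin's ratio moved with the base composition of its transcript. Over the 32 kept kinesins the Spearman correlation of the log2 ratio with GC content was -0.83 and Pearson's r was -0.81, and over all 13876 kept genes with a value they were -0.64 and -0.57. These are descriptions across genes of the same 2 libraries. Splitting the mitotic group at 45% GC, a value chosen after the ratios were seen, 5 of the 6 genes below it were 2-fold higher, with log2 ratios of 0.95 to 1.64, and of the 6 genes at or above it KIF4A alone was, in a range of 0.25 to 1.27. The transport group showed the same order, with Spearman -0.95 over 11 genes. KIF3A has 37.8% GC and KIF3C 56.0%. The part of base composition, or of how the libraries were made, in these ratios was not tested.

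**Figure D4:**
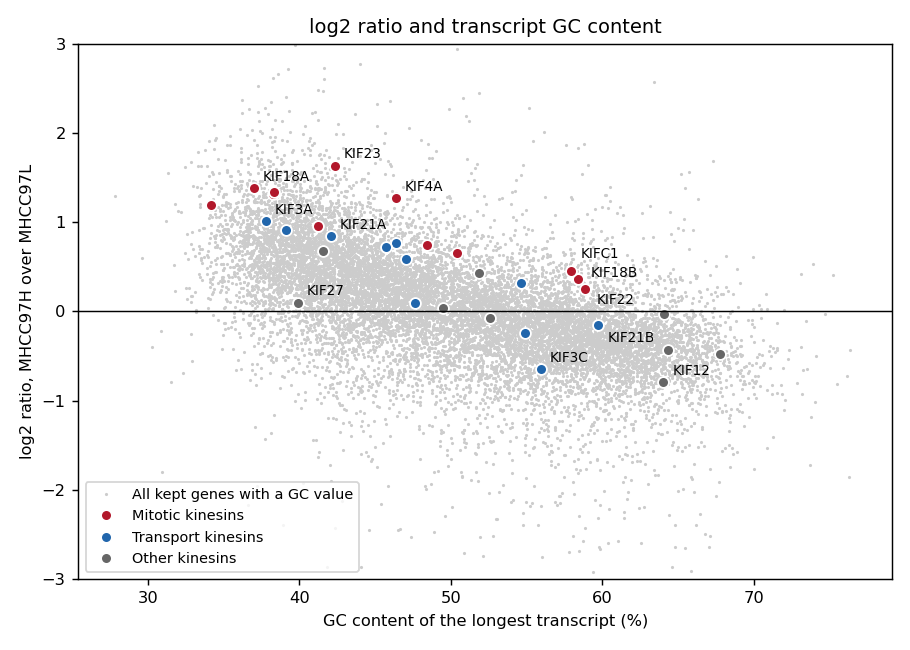
The log2 ratio of MHCC97H over MHCC97L against the GC content (%) of the longest transcript, for all kept genes with a value (grey, 29 of them beyond the plotted range of -3 to 3) and for mitotic (red), transport (blue) and other (dark grey) kinesins. The whole cloud slopes down, kinesins of every group slope with it, and KIF23 and KIF4A lie high in the cloud for their GC content.

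When the trend of all genes with GC content and transcript length was removed, the spread among the mitotic kinesins shrank, with a standard deviation of 0.23 across the 12 genes in place of 0.46. It shrank elsewhere too, from 0.55 to 0.31 in transport kinesins, from 0.46 to 0.31 in other kinesins and from 0.68 to 0.54 over all genes with a value. All 12 mitotic log2 ratios remained above 0 as point values, between 0.32 (KIF20B) and 1.15 (KIF23), with a median of 0.63. Counting intervals shifted along with the ratios include equality for KIF15 and KIF20B. The median over all genes was then -0.001. KIF23 and KIF4A (1.00, on the threshold) were still at least 2-fold higher, as were 2.4% of all genes with a value. KIF11 (0.63), KIF18A (0.67), KIF14 (0.57) and KIF20B (0.32) were not. The GC-rich KIFC1 (0.70), KIF18B (0.54) and KIF22 (0.53) had larger ratios after this step. The 3 mechanical roles then had medians of 0.63 for the spindle, 0.59 for the chromosomes and 0.63 for the midzone, in place of 0.95, 0.51 and 1.27. CENPE stood at 0.08.

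The transport median became 0.26, within a range of -0.54 to 0.45, and no transport kinesin was 2-fold higher or lower, where 3.7% of all genes were lower. The mitotic median exceeded it by 0.37. Under this treatment the point values of 10 of the 12 mitotic genes lay above the highest transport gene, KIF13A (0.45). The exceptions were KIF15 (0.37) and KIF20B (0.32). Of these 10, KIF23 and KIF4A alone had shifted counting intervals apart from that of KIF13A. KIF3A stood at 0.26 and KIF5B at 0.21. Signs changed for KIF3B (0.09 as counted, -0.16 with the trend removed), KIF27 (0.10 and -0.54), KIF24 (0.03 and -0.13) and KIF7 (-0.03 and 0.28). KIF12 (-0.36) and KIF3C (-0.54) kept a negative sign.

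**Figure D5:**
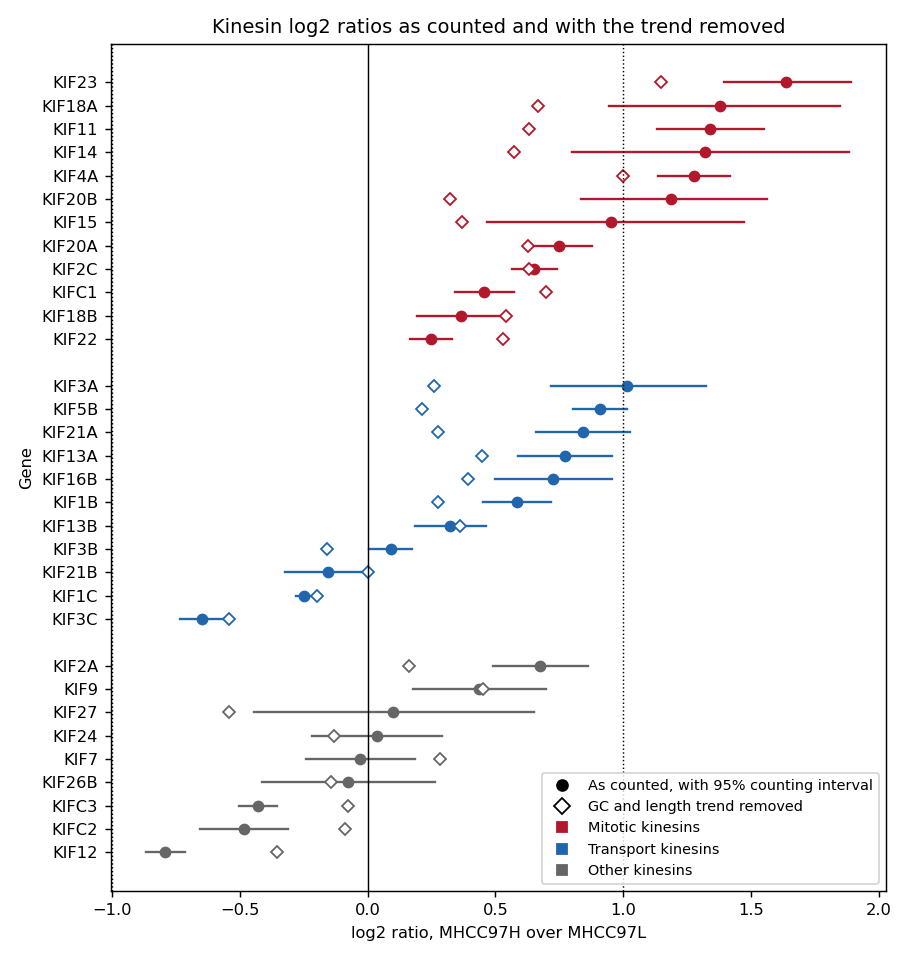
The log2 ratio of MHCC97H over MHCC97L for the 32 kept kinesins as counted (filled, with 95% counting intervals) and after the dependence on GC and length was taken out (open diamonds); dotted lines mark 2-fold. As counted the mitotic genes run from 0.25 to 1.64. With the trend removed their points, drawn without intervals, run from 0.32 to 1.15, all above 0.

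Pairs of close relatives show the same step on a small scale. There are 9 pairs of kept kinesins that share a number, and in all 9 the member with less GC had the higher log2 ratio. The pairs among KIF3A, KIF3B and KIF3C share genes, so the 9 are not separate observations. KIF18A exceeded KIF18B by 1.02 as counted and by 0.12 with the trend removed, and their GC contents are 37.0% and 58.4%. KIF21A exceeded KIF21B by 1.00 and then by 0.28. KIF20A lay 0.44 below KIF20B as counted and 0.31 above it with the trend removed. KIF3A exceeded KIF3C by 1.66 and then by 0.80, the largest remaining difference of the 9. KIF2A exceeded KIF2C by 0.02 and then lay 0.47 below it, the single pair whose difference grew.

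Mitotic genes with and without the promoter motif overlapped in their ratios. As counted, the 9 genes with TTTGAA had log2 ratios of 0.36 to 1.64, and KIF2C, KIF20A and KIF22 had 0.65, 0.75 and 0.25. With the trend removed the 9 ran from 0.32 to 1.15, and the other 3 stood at 0.63, 0.63 and 0.53, within that range.

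Of 20 partners of the mitotic kinesins, among them Aurora kinases, chromosomal passengers and spindle proteins, 4 were 2-fold higher and none lower, with a median log2 ratio of 0.80 (0.55 after trend removal). They were ANLN, a contractile ring scaffold (2.63-fold, 2.33 to 2.99), ASPM, a spindle pole protein (2.39-fold, 1.84 to 3.15), TPX2, the activator of Aurora A (2.08-fold, 1.98 to 2.19), and NUSAP1, a microtubule bundler (2.03-fold, 1.80 to 2.30). Of all kept genes 7.06% were 2-fold higher. After trend removal none of the 20 was, with ANLN at 0.75, ASPM at 0.45, TPX2 at 0.83 and NUSAP1 at 0.63. Of 12 general proliferation genes 4 were 2-fold higher. Their median was 0.72, and after trend removal it was 0.63, as it was for the mitotic kinesins. They were TOP2A (1.40), MKI67 (1.38), CDK1 (1.29) and MCM6 (1.07), as log2 ratios. After trend removal MKI67 (1.12) alone was, and TOP2A stood at 0.71, CDK1 at 0.69 and MCM6 at 0.63.

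Among partners of the transport kinesins, of 23 listed genes for kinesin light chains and cargo adaptors, 22 were kept, with a median log2 ratio of -0.11, and the scaffold gene MAPK8IP1 alone passed 2-fold, being lower at 1.53 CPM in MHCC97H against 3.32 CPM in MHCC97L, a log2 ratio of -1.11 that became -0.75 after trend removal. Of all kept genes 4.65% were 2-fold lower. The most abundant of them, CLSTN1 and the light chain gene KLC2, had log2 ratios of -0.13 and -0.39. KIFAP3, the cargo-binding subunit of the KIF3 complex and chosen after its values were seen, had 0.53, and -0.18 after trend removal. Of 28 genes of dynein, dynactin and their adaptors, which carry cargo the other way, 26 were kept. Their median was 0.21 (0.01 after trend removal), and HOOK1 (1.11) and DCTN6 (1.11) were 2-fold higher, a share near the 7.06% of all kept genes. After trend removal neither was (0.32 and 0.70). Of 12 tubulin genes 11 were kept and none reached 2-fold, where 7.06% of all kept genes were higher and 4.65% lower. The tubulin median was 0.25, and 0.39 after trend removal, when 10 of the 11 were above 0. TUBA1B and TUBB4B, the most abundant, had 0.58 and 0.28, and near-identical tubulin copies may share reads.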

How the data were processed

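Poly(A)-selected RNA of MHCC97H and MHCC97L was sequenced, with 1 library per line (28967153 and 24964246 counted reads). The deposited table holds raw counts per gene. Reads were aligned to hg19 with HISAT2 2.1.0 and counted with HTSeq 0.11.2, per the submitters' processing notes, which also name bcl2fastq. For the annotation, the strand setting and multiply mapped reads, the handling is not given in the sources used here.

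TMM factors (1.06 and 0.942) were computed with edgeR 4.0.16 in R 4.3.3 on genes with at least 1 CPM of total counts in 1 library. Ratios used a prior count of 0.5 and 95% exact Clopper-Pearson intervals. With 1 library per line no test was made. GC content and length of the longest protein-coding transcript came from GENCODE 29 (GRCh38), and a lowess trend (span 0.2) on both was removed as an alternative, over 13876 genes (95.2% of those kept). Steps were tested on simulated data with counting error alone, so that check leaves out variation between libraries. Other alternatives were total counts, DESeq2 1.42.0 and upper-quartile scaling, filters, priors, thresholds and assumed coefficients of variation.

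Named were all kept kinesins and CENPE. Of each other list, up to 4 genes past 2-fold with at least 5 CPM in 1 library were named, or the 2 most abundant where none was. Markers, MAPK8IP1, KIFAP3 and DCTN6 (4.98 CPM in MHCC97H) were added. Members and lists were chosen with earlier results of these data known. Promoter windows (RefSeq, GRCh38.p14) were matched by symbol for 34 of 42 members. Protein sequences were not used here.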

Additional observations from a re-analysis of the deposited data

How the results depend on the processing

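The count of 7 kinesins 2-fold higher in MHCC97H became 2 with the trend on GC content and length taken out, 15 at 1.5-fold and 1 (KIF23) when each library was assumed to vary by a coefficient of 0.4. It was 6 to 10 under the other alternatives. The share of all kept genes called higher moved too. It was 7.06% at 2-fold, 19.3% at 1.5-fold and, among genes with a GC value, 2.4% with the trend removed. The count of kinesins lower was 0 throughout, except 2 at 1.5-fold. Of all kept genes 4.65% were lower at 2-fold, 13.8% at 1.5-fold and 3.7% with the trend removed. For the remaining settings these shares were not computed. The mitotic median log2 ratio of 1.07 became 0.63 without the trend and lay between 0.95 and 1.24 otherwise. The transport median of 0.58 became 0.76 with total counts, 0.73 with no filter on low counts, 0.26 without the trend and 0.094 when all kinesins outside the mitotic list were taken. The difference of medians stayed positive, between 0.34 and 0.98. Total counts added 0.17 to the log2 ratio of all genes, and KIF5B (1.08), KIF15 (1.12) and KIF21A (1.01) then passed 2-fold. KIF3A missed 2-fold with DESeq2 size factors and with a prior count of 5 (0.99 in both). No paired analysis was possible because each line has 1 library, and for the same reason no library could be left out. Depth limits the rarest kinesins most: the interval of KIF14 runs from 1.74 to 3.69-fold.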
